A study of Mus musculus with 5 samples.

Results

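Transcription factor genes that are used as marks of the upper cortical layers were followed in labeled neurons of mouse S1. The genes were listed by name and comprise *Cux1*, *Cux2*, *Pou3f1*, *Pou3f2*, *Pou3f3*, *Lhx2*, *Rorb*, and *Mef2c*, which are 8 of the 19938 genes with a named probe set. All wild-type ICR mice of the screening had been electroporated in utero with a tdTomato plasmid, received Green RetroBeads at PD21, and were collected at PD24, 3 days later. Beads in M1 of the same hemisphere marked association neurons and beads in the contralateral S1 (cS1) marked callosal neurons. About 1000 labeled cells per group were cut out by laser microdissection, giving 5 groups with 1 array each, which were L2/3, L5, and L6b for association neurons and L2/3 and L5 for callosal ones. The number of animals behind an array is not stated in the labels or methods. Each value below is a log2 signal of a probe set, which is a group of probes read together, minus the median of its array, so that 0 is the median signal and a difference of 1 is a 2-fold difference. With 1 array per group no value has a replicate error. Arrays averaged by layer are of different projections and are not replicates, so no test was run, and a gene is counted as higher or lower by a rule of size, 2-fold.

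Neurons of the upper layers are born late, connect cortical areas with each other, and keep a set of transcription factors into adult life. Cux1 and Cux2 carry CUT domains and a homeodomain and shape dendrites and spines of upper-layer neurons. Pou3f1 (Oct6), Pou3f2 (Brn2), and Pou3f3 (Brn1) bind DNA through a POU domain, and the last pair acts in the production and migration of upper-layer neurons. Lhx2 is a LIM homeodomain factor of cortical identity, Rorb is an orphan nuclear receptor that marks L4 of sensory cortex, and Mef2c is a MADS-box factor that responds to calcium and restrains excitatory synapse number. L4 was not collected as a group.

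The genes lie on several chromosomes of the mouse genome, with *Cux1* and *Cux2* both on chr5 and *Pou3f1* and *Pou3f2* both on chr4. In GRCm38.p6 the gene table of RefSeq places *Cux1* at chr5:136248135-136567590, *Cux2* at chr5:121857962-122050415, *Pou3f1* at chr4:124657646-124660655, and *Pou3f2* at chr4:22482095-22488366. *Pou3f3* lies at chr1:42695768-42700210, *Lhx2* at chr2:38339271-38369737, *Rorb* at chr19:18930609-19111196, and *Mef2c* at chr13:83504017-83667079. Promoter windows, which run from 250 bases before to 50 bases after an annotated start, were found in RefSeq for 7 of the 8 genes, all but *Pou3f1*, with 12 windows in all. Shown are the windows of *Cux1* and *Pou3f2*, the genes whose L2/3 arrays stood farthest above all deep-layer arrays, and the window of *Mef2c* that holds the most kinds of motif, each written 5′ to 3′ on the strand of the gene, with motif matches in capitals. The windows lie at chr5:136565932-136566231 on the minus strand for *Cux1*, at chr4:22488317-22488616 on the minus strand for *Pou3f2*, and at chr13:83523406-83523705 on the plus strand for *Mef2c*.
Cux1: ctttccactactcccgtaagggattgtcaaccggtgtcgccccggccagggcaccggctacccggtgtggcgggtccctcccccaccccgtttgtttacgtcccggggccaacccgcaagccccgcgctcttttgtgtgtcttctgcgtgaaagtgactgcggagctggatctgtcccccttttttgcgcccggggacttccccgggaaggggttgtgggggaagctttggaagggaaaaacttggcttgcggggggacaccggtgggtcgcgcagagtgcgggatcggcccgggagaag
Pou3f2: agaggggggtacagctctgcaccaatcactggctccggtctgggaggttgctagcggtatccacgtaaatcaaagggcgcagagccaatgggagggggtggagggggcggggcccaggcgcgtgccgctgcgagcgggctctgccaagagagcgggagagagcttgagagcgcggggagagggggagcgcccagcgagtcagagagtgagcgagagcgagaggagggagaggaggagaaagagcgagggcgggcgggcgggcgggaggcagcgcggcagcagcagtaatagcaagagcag
Mef2c: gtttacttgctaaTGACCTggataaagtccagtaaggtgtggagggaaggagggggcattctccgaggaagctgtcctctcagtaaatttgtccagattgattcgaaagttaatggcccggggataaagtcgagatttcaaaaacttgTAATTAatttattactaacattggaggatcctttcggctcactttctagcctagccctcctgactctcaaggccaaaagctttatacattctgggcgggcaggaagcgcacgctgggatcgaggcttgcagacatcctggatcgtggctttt

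The windows were searched on both strands for short motifs of the families to which the members belong. The CUX motif ATCGAT was in 0.925% of all 32851 windows, and among the members in 1 window of *Cux2*, shown here because the motif is that of its own family, at chr5:122047892-122047897 with 12 bases on either side.
Cux2: gggctcatctgaATCGATataaagaggagg
This match begins at position -72 from a start inside the gene and overlaps no other motif searched. The ROR half-site AGGTCA was in 16.3% of all windows and in 2 of the 12 member windows, both of *Mef2c*. The core TAATTA of LIM homeodomain sites was in 5.29% of all windows and in 1 of the 12, that of *Mef2c* printed above, where the capitals TGACCT are the half-site read on the other strand. The octamer ATGCAAAT of POU factors (1.74% of all windows) and the MEF2 motif (3.19%) had no match in these 12 windows. The windows of *Cux1* and *Pou3f2* had 65.0% and 67.7% G and C, against a median of 52.7% over all windows, and no match to any of the 5 motifs. A match describes letters and not binding.

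The layers of the arrays could be read from other markers for L2/3 and L6b, and less clearly for L5. Of 7 genes of L6b and the subplate, all 7 were highest in the L6b array, led by *Cplx3*, a complexin gene, at 5.22 against -0.37 to 0.39 elsewhere. Of 10 other upper-layer genes, 6 were higher in both L2/3 arrays than in every deep-layer array, against 14.6% of all genes past the filter (6.41% as deposited). Among the 6, *Plxnd1* and *Inhba* each had the same deposited value in an L2/3 and an L5 array. *Calb1*, which encodes a calcium buffer, stood at 5.82 and 5.55 in L2/3 against 3.15 or less. Of the L4 markers, *Kcnh5*, a potassium channel gene, stood at 4.41 and 4.93 in L2/3 and at 3.04 to 3.40 in the deep layers. *Rspo1* did not separate the layers, at 0.56 in association L2/3, 1.41 in callosal L2/3, and 0.83 to 0.88 in the deep layers. *Scnn1a* lay below the median in all arrays. Of 8 L5 markers, 2 were higher in every deep-layer array than in both L2/3 arrays, and 3 were highest in L6b. Among them, *Pcp4* stood at 5.99 and 6.14 in L5 and 6.16 in L6b. *Rbp4* stood at 3.76 in association L5 but 1.12 in callosal L5. Of 4 L6a markers past the filter, 2 were highest in L6b, with *Tle4* at 2.91 there. The shares of all genes highest in L6b, or higher in every deep-layer array than in both L2/3 arrays, were not counted. Any pair of arrays had a Pearson correlation of 0.918 to 0.938 across probe sets. The deposited values often repeat between arrays, and 36.4% of the 12632 genes past the filter have an identical value in at least 3 arrays. The projections also differed in sex-linked genes. *Xist*, the RNA of the inactive X chromosome, was at 1.47 to 2.55 in the association arrays and at -1.48 and -0.88 in the callosal arrays, and the Y-linked *Eif2s3y* was at -2.61 to -2.46 and at 2.45 and 2.90. In a comparison of association with callosal neurons, the projection and this difference cannot be told apart.

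All 8 genes passed the filter, which asks for the array median in at least 1 array, and all but *Pou3f2* in L6b lay above the median in every array. The members fell into genes that differed between arrays and genes that hardly did. *Cux1*, *Pou3f2*, *Lhx2*, and *Mef2c* spanned at least 2-fold over the 5 arrays, 4 of 8 genes where 29.5% of all genes past the filter did. *Pou3f2* had the widest span, 2.93 log2, wider than that of 96.8% of those genes. This rests on the brighter of its probe sets, and the further one lay at -0.15 to -0.01 in all 5 arrays. *Pou3f1* and *Pou3f3* had the narrowest, 0.35 and 0.27. The name of the group held in part: 7 of 8 genes had a higher mean in the L2/3 arrays than in the deep-layer arrays, where 52.8% of all genes did, but *Pou3f3* did not, and *Cux2*, *Pou3f1*, and *Rorb* differed by 0.16 to 0.32 log2.

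**Figure D1:**
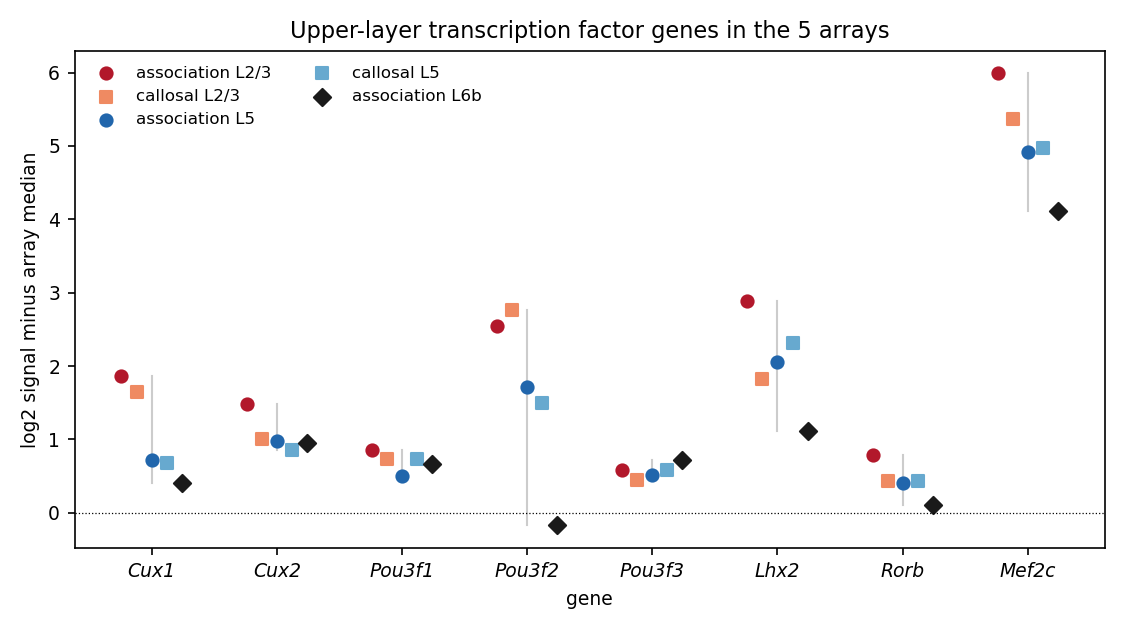
Log2 signal minus the array median (vertical axis) for each of the 8 genes (horizontal axis), where each point is 1 of the 5 arrays, with a grey line over the range of each gene and a dotted line at the array median. *Pou3f2* lies between 2.76 in callosal L2/3 and -0.17 in association L6b, while *Pou3f1* and *Pou3f3* stay within 0.35 and 0.27 log2.

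*Cux1* was higher in both L2/3 arrays than in the L5 arrays of both projections and the L6b array, which was made for association neurons only. Its signal was 1.87 in association L2/3, 1.65 in callosal L2/3, 0.72 in association L5, 0.68 in callosal L5, and 0.40 in association L6b. The lower of the L2/3 arrays stood 0.93 log2 above the highest deep-layer array, the widest such gap among the 8 genes. The mean of the L2/3 arrays was 1.16 log2 above the mean of the deep-layer arrays, a 2.23-fold higher signal. *Cux2*, its paralog, showed a difference in 1 array. It stood at 1.48 in association L2/3, 1.01 in callosal L2/3, 0.98 in association L5, 0.86 in callosal L5, and 0.95 in association L6b. Only association L2/3 stood clear of the others, since the deposited signal was 6.75 in callosal L2/3, association L5, and association L6b alike. Both genes were read by 1 probe set each.

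The POU genes did not share a pattern. *Pou3f2* stood at 2.54 in association L2/3, 2.76 in callosal L2/3, 1.71 in association L5, 1.5 in callosal L5, and -0.17 in association L6b. The L2/3 arrays were the highest, the L5 arrays lay in between, and the L6b value was -1.67 log2 from the lowest of the others. Its L6b signal did not exceed the array median, so the size of the L6b difference rests on a dim signal. A further probe set of *Pou3f2* lay below the median in all 5 arrays, at -0.15 to -0.01, and showed no layer difference of this kind. With the mean of both probe sets, the L2/3 minus L5 difference of callosal neurons was 0.63 in place of 1.26, the L2/3 minus L6b difference of association neurons 1.40 in place of 2.71, and the L6b enrichment -1.19 in place of -2.30. The mean of the L2/3 arrays then stood 0.82 log2 above that of the deep-layer arrays, in place of 1.64. *Pou3f1*, a factor also known from myelinating Schwann cells, stood at 0.85 in association L2/3, 0.73 in callosal L2/3, 0.50 in association L5, 0.73 in callosal L5, and 0.67 in association L6b. *Pou3f3* stood at 0.58 in association L2/3, 0.45 in callosal L2/3, 0.52 in association L5, 0.58 in callosal L5, and 0.72 in association L6b. *Pou3f3* was the only member whose highest array was L6b, at 0.72 against 0.58 or less, and *Pou3f1* had an identical deposited signal of 6.47 in 3 arrays.

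*Lhx2* was low in L6b, and between L2/3 and L5 its direction depended on the projection. Its signal was 2.88 in association L2/3, 1.82 in callosal L2/3, 2.06 in association L5, 2.32 in callosal L5, and 1.11 in association L6b. Among association neurons the order was that of depth, L2/3 above L5 above L6b. Among callosal neurons L5 was 0.50 log2 above L2/3, so that the layers overlapped between the projections. Without association L2/3, the mean difference of L2/3 from the deep layers was -0.01 in place of 0.52, and without callosal L2/3 it was 1.05.

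*Rorb* and *Mef2c* were highest in association L2/3 and lowest in L6b. *Rorb* stood at 0.79 in association L2/3, 0.43 in callosal L2/3, 0.40 in association L5, 0.43 in callosal L5, and 0.10 in association L6b, and its deposited signal was 6.17 in the middle 3 of these arrays. *Mef2c* stood at 5.99 in association L2/3, 5.37 in callosal L2/3, 4.92 in association L5, 4.97 in callosal L5, and 4.11 in association L6b. The *Mef2c* signal thus stepped down from L2/3 to L5 to L6b without overlap, with a span of 1.88 log2, and its mean in L2/3 was 2.02-fold that in the deep layers. This mean difference fell under 2-fold in some alternatives, with 0.97 log2 as deposited, 0.92 with the 75th percentile of each array as scaling, 0.70 without association L2/3, and 0.74 without L6b. *Rorb* spanned 0.69 log2.

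Between L2/3 and L5, association neurons held 2 genes and callosal neurons 1 gene at least 2-fold higher in L2/3, and no gene at least 2-fold lower. *Cux1* was higher in L2/3 by 1.15 in association and by 0.97 in callosal neurons. *Mef2c* was higher by 1.07 and 0.40, and *Pou3f2* by 0.83 and 1.26. Of all genes past the filter, 7.36% were at least 2-fold higher in association L2/3 and 4.52% in callosal L2/3, while 3.48% and 4.08% were at least 2-fold lower. The median difference of the 8 genes was 0.66 in association and 0.08 in callosal neurons, against 0.06 and 0.00 over all genes past the filter. *Cux1*, *Cux2*, *Pou3f2*, and *Mef2c* were higher in both L2/3 arrays than in all 3 deep-layer arrays, where 14.6% of all genes were. As deposited these were 3 genes and 6.41%, since *Cux2* had a tied value, and there were also 3 with the 75th percentile as scaling and with quantile normalization. With the 75th percentile of each array in place of the median, *Mef2c* in association neurons stood at 0.97.

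**Figure D2:**
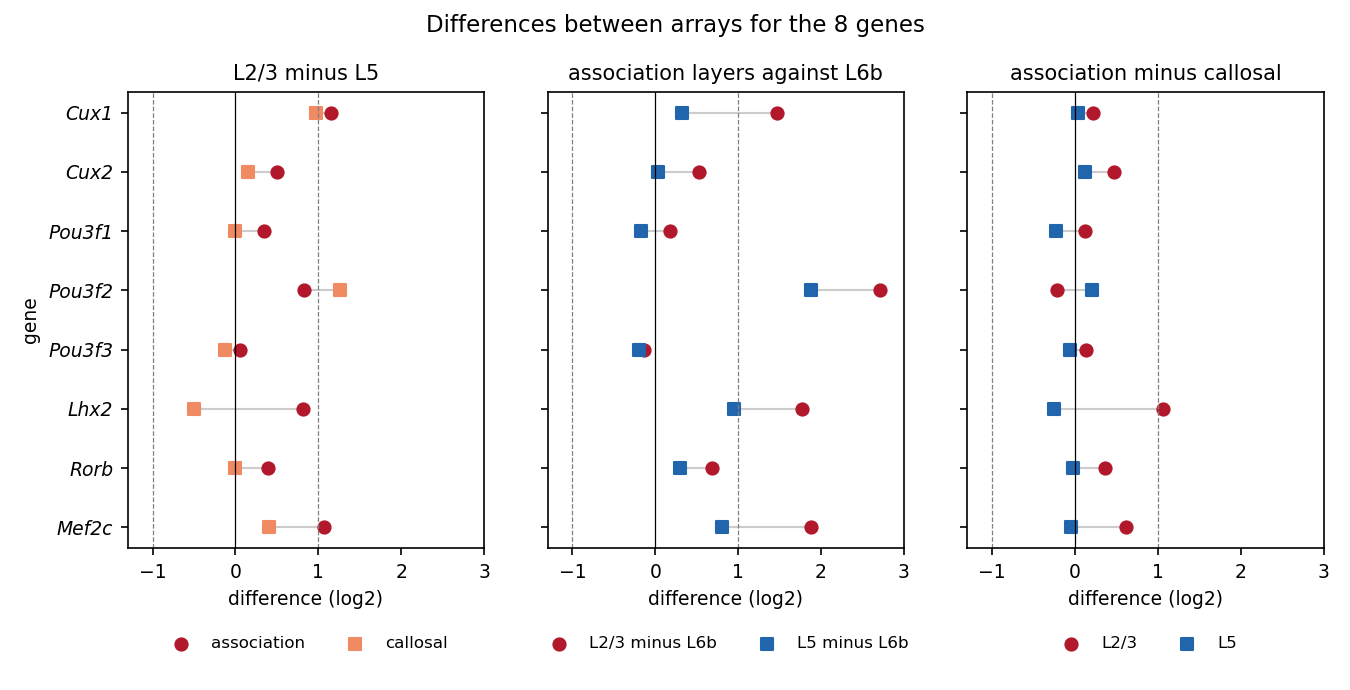
Differences in log2 (horizontal axis) of the 8 genes (vertical axis) between pairs of arrays, with dashed lines at a 2-fold difference. Left, L2/3 minus L5 within association (circles) and callosal neurons (squares); middle, association L2/3 (circles) and L5 (squares) minus L6b; right, association minus callosal within L2/3 (circles) and L5 (squares). In the middle panel *Pou3f2* lies farthest right at 2.71 and 1.88, and in the right panel *Lhx2* stands at 1.06 in L2/3 and -0.26 in L5.

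The widest single differences were those from L6b. In association neurons, 4 of 8 genes were at least 2-fold higher in L2/3 than in L6b, against 10.6% of all genes past the filter. *Mef2c* was 1.88 log2 higher, *Lhx2* 1.77, and *Cux1* 1.47. *Pou3f2* was 2.71 higher with a signal below the array median in L6b, and with the mean of its probe sets it was 1.40 higher, less than the other 3 genes. Between L5 and L6b only *Pou3f2* passed 2-fold, by 1.88, with 7.16% of all genes doing so, and *Lhx2* stood at 0.95 and *Mef2c* at 0.81. *Cux1* differed by 0.32 between these layers, less than its differences between L2/3 and L5. No member was at least 2-fold lower in L2/3 or L5 than in L6b, where 2.83% and 3.5% of all genes were. The L6b enrichment, which is the L6b signal less the mean over the remaining 4 arrays, was -2.30 for *Pou3f2*, -1.20 for *Mef2c*, -1.16 for *Lhx2*, -0.83 for *Cux1*, -0.41 for *Rorb*, -0.13 for *Cux2*, -0.03 for *Pou3f1*, and 0.19 for *Pou3f3*. *Pou3f2* was at least 2-fold below every other array in L6b, as were 2.82% of all genes. In 5 of 8 genes L6b was the lowest array, against 30.5% of all genes, and in these 5 it was also the lowest as deposited, against 17.4%. The comparison of L2/3 with L6b and that of L5 with L6b share the L6b array.

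**Figure D3:**
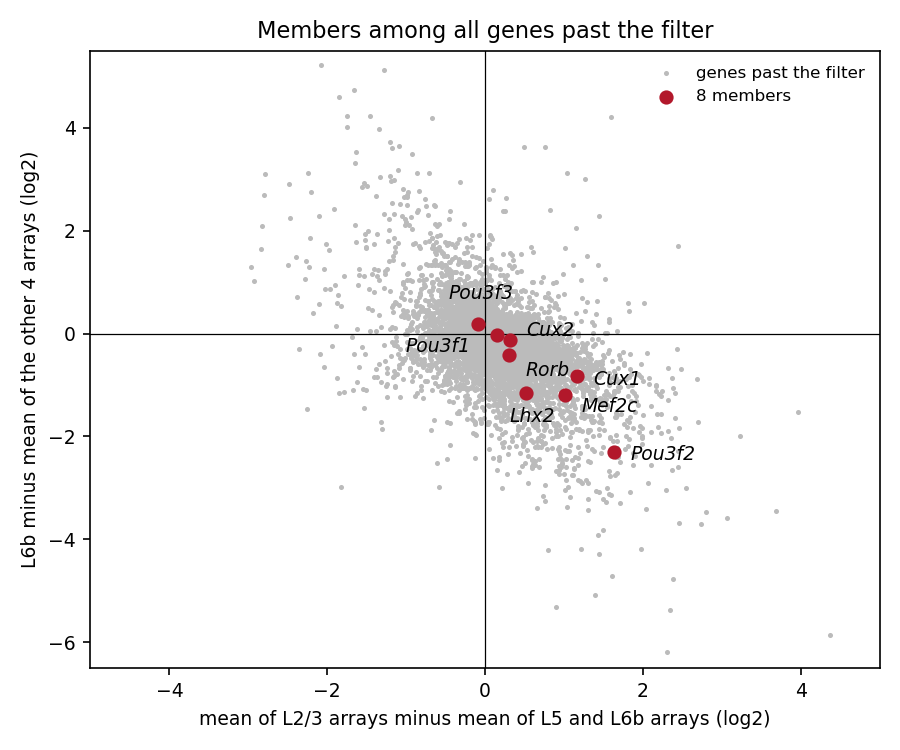
Mean of the L2/3 arrays minus mean of the L5 and L6b arrays (horizontal axis, log2) against the L6b enrichment (vertical axis, log2) for the 12632 genes past the filter (grey) and the 8 members (red). Both axes use the L6b array, so a downward slope is built in. *Pou3f2* stands at 1.64 and -2.30 (0.82 and -1.19 with the mean of its probe sets), and *Pou3f3* at -0.09 and 0.19.

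Association and callosal neurons differed in L2/3 mainly in *Lhx2*. It was 1.06 log2 higher in association neurons there, a 2.08-fold higher signal, and was the only member at least 2-fold apart, with 5.07% of all genes past the filter higher and 3.48% lower by that size. With quantile normalization the difference was 0.99. *Mef2c* stood 0.62 higher, *Cux2* 0.47, *Rorb* 0.36, *Cux1* 0.22, *Pou3f3* 0.13, and *Pou3f1* 0.12, and *Pou3f2* stood at -0.22. In L5 no member was at least 2-fold apart, where 3.49% of all genes were higher and 4.97% lower, and the members ranged from -0.26 for *Lhx2* to 0.21 for *Pou3f2*. The median difference of the 8 genes was 0.29 in L2/3 and -0.04 in L5, against 0.03 and -0.03 over all genes. In 6 of 8 genes association L2/3 was the highest of the 5 arrays, a count taken after the values were seen, where 27.4% of all genes were highest in that array (17.2% as deposited, with the same 6 members).

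Paralogs of the members were set beside them by the same rule, in lists too short to tell their counts from the share of all genes. Genes higher in both L2/3 arrays than in every deep-layer array were counted in each list. These were 0 of 4 CUT, 0 of 3 POU, 0 of 6 LIM homeobox, and 0 of 3 ROR and REV-ERB receptor genes. Of the MEF2 genes it was 1 of 2, *Mef2a*, against 14.6% of all genes past the filter (6.41% as deposited). *Mef2a* stood at 3.45 to 3.61 in all arrays. Its deposited signal was the same in both L2/3 arrays, association L5, and L6b, so it was not higher there as deposited. *Satb1*, which encodes a chromatin organizer with CUT domains, stood at 4.07 in callosal L5 and 2.13 to 2.92 in the others. No member of the POU and LIM homeobox lists had a span of 2-fold among the 3 and 6 genes past the filter. *Mef2d* stood at 2.65 in association L2/3 and at 0.66 to 1.38 in the others. Among the ROR and REV-ERB receptors, *Rora* stood at 1.40 in L6b and 1.77 to 2.30 elsewhere, and the clock repressor gene *Nr1d1* at 1.19 in L6b and 2.51 to 3.42 elsewhere.

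Partners and regulators of the members varied more than their paralogs. Of the MEF2 regulators, 3 of 8 were at least 2-fold higher in association L2/3 than in each other array, and *Mef2d* was too, where 2.34% of all genes past the filter were. *Akap5*, which encodes a scaffold of kinases and phosphatases at synapses, stood at 4.11 in association L2/3, 2.37 to 2.78 in callosal L2/3 and the L5 arrays, and 0.52 in L6b. The class IIa histone deacetylase genes *Hdac4* and *Hdac9*, whose products repress MEF2 factors, stood at 2.56 and 2.23 in association L2/3, and at no more than 1.27 and 0.90 elsewhere. The other 2 genes of this class, *Hdac5* and *Hdac7*, were flat, at 0.86 to 0.95 and 0.80 to 0.94 over all arrays. Of 9 genes of LIM cofactors, 5 had a span of at least 2-fold. *Ldb1*, which encodes the bridging partner of LIM homeodomain factors, had a signal of 2.83 in association L2/3, 3.82 in callosal L2/3, and 1.88 to 2.41 in the deep layers. *Ldb2* ran the other way, at 1.12 and 1.59 in L2/3, 1.76 and 1.79 in L5, and 2.48 in L6b. *Lmo1* and *Lmo3*, which encode LIM-only proteins, had upper-layer differences of 0.64 and -0.59, the former from callosal L2/3 alone. The median over the 8 MEF2 regulators was 0.02 and that over the 9 cofactors 0.12, beside 0.42 over the 8 members (0.11 without association L2/3) and 0.015 over all genes past the filter.

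Some regulators of the deep layers ran the other way. None of 10 genes past the filter was higher in both L2/3 arrays than in the deep layers. Of all genes 14.6% were (6.41% as deposited), and a list of 10 genes is too short to tell none from that share. In 2 genes both L2/3 arrays were lower than every deep-layer array, a rule for which the share of all genes was not counted. *Fezf2*, which specifies subcerebral neurons, stood at -0.20 and -0.34 in L2/3, 1.39 and 2.04 in L5, and 0.32 in L6b. The corepressor gene *Tle4* stood at 2.91 in L6b and at -0.28 to 0.07 elsewhere. *Nr4a2* and *Nfib* had upper-layer differences of -0.51 and -0.35, and each was highest in L6b. Of the 10 genes, 5 were highest in L6b, for which the share of all genes was not counted. Lowest there were 2, against 30.5% of all genes past the filter. *Tbr1* stood at 3.60 in L6b and 4.12 to 4.36 elsewhere, with an upper-layer difference of 0.27. *Etv1* was highest in association L2/3, at 2.75, and stood at 0.35 in L6b. The median upper-layer difference of these 10 genes was -0.28. Of the 4 other upper-layer regulators past the filter, *Prdm8*, *Foxp1*, *Id2*, and *Zbtb20*, none spanned 2-fold, and their median difference was 0.12.

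**Figure D4:**
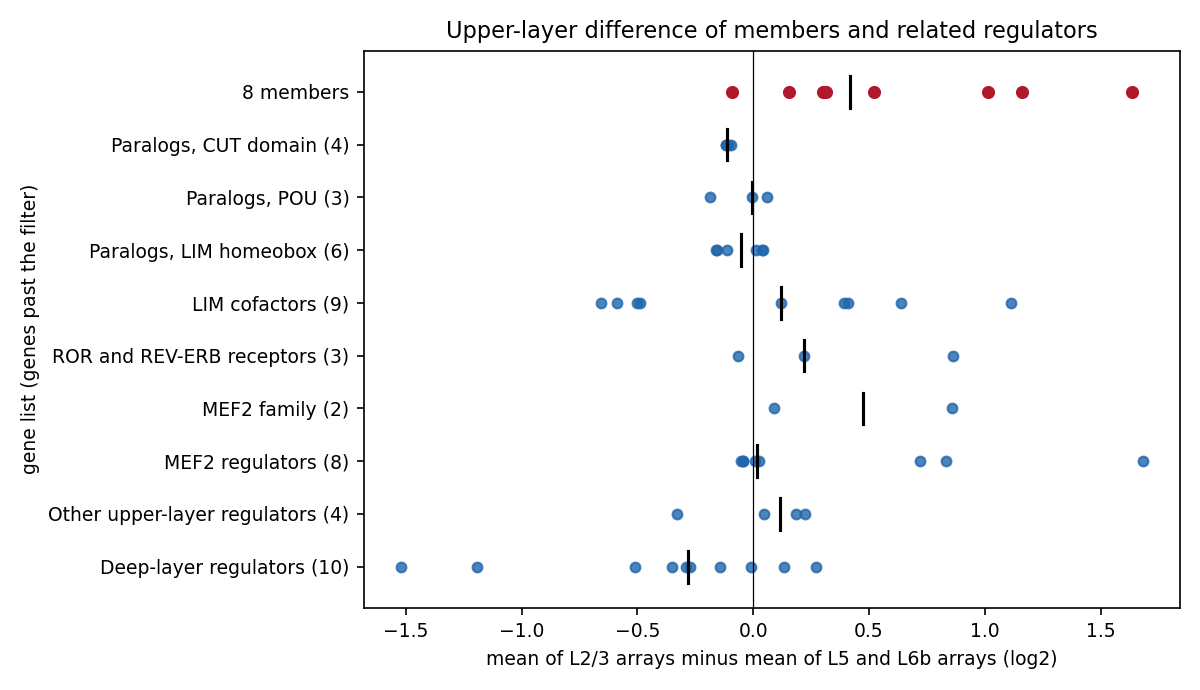
Mean of the L2/3 arrays minus mean of the L5 and L6b arrays (horizontal axis, log2) for the 8 members (red) and for related regulators by list (blue, vertical axis, number of genes past the filter in parentheses), 1 point per gene, with black bars at list medians. *Pou3f2* lies farthest right of the members at 1.64 (0.82 with the mean of its probe sets). *Akap5* lies farthest right of the MEF2 regulators at 1.68, and *Fezf2* farthest left of the deep-layer regulators at -1.52.

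Some members are also made by cells other than projection neurons. *Mef2c* is known from microglia and from GABAergic neurons, and *Lhx2* and the POU genes from glia. Of 10 GABAergic genes past the filter, 4 were lowest in L6b, against 30.5% of all genes past the filter. The sum of the 10 linear signals, in units of the array median, was 18.8 in L6b and 41.3 to 65.9 elsewhere. Bright genes weigh most in such a sum, and outside L6b the brightest of the 10 were *Sst* and *Pvalb*. *Pvalb*, a calcium buffer gene of fast-spiking interneurons, stood at -1.38 in L6b and 2.26 to 4.57 elsewhere, and the peptide gene *Sst* at 2.45 and 3.78 to 4.66. *Lhx6*, *Dlx1*, *Dlx2*, and *Reln* did not share this drop and spanned 0.09 to 0.47 log2. *Slc32a1* and *Vip* were not lowest in L6b either. *Slc32a1* stood at 1.93 there and 1.83 to 2.74 elsewhere, and *Vip* at 0.73 and -0.13 to 2.14. For 7 microglia genes the sum was 9.75 in L6b and 10.1 to 11.1 elsewhere, with *Itgam* below the median in all arrays, and for 7 astrocyte genes it was 39.7 and 38.5 to 50.5, with *Gfap* below the median in all arrays. The 7 myelin genes were all higher in every deep-layer array than in both L2/3 arrays, with sums of 24.5 to 48.0 in the deep layers and 11.3 and 11.8 in L2/3. For this rule the share of all genes was not counted. Precursor genes of oligodendrocytes had a sum of 7.01 in L6b and 5.93 to 7.60 elsewhere, and endothelial and mural genes 8.49 and 6.93 to 8.88. Glutamatergic genes, which the captured cells should hold, summed to 38.4 in L6b and to 65.0 to 96.6 elsewhere, with *Camk2a*, a kinase gene of excitatory neurons, at 2.41 in L6b and 4.41 to 5.75 elsewhere. Of these 7 genes 4 were lowest in L6b, against 30.5% of all genes past the filter, and 3 were not. The vesicular glutamate transporter gene *Slc17a7* stood at 3.98 in L6b and 3.84 to 4.47 elsewhere, *Neurod6* at 3.08 and 1.29 to 3.42, and *Neurod2* at 1.24 and 1.01 to 1.53. The part of these cells in the member values was not tested, and in bulk samples fewer cells of a type and less RNA per cell cannot be told apart.

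For the members spanning at least 2-fold, the nearest genes were named by the root mean square difference between profiles centered on their means, over 5 arrays and 11620 other genes. The profiles were not scaled to their span. Nearest to *Mef2c* were *Zfp612* (0.05 log2), *Ncoa1* (0.07), which encodes a coactivator of nuclear receptors, and *Htra2* (0.10), which encodes a mitochondrial protease. For *Cux1* they were *Yipf1* (0.11), *Rpgrip1l* (0.12), and *Rpap3* (0.14), and for *Pou3f2* *Tmem47* (0.17), *Igfbp6* (0.18), and *Eif5a* (0.21). For *Lhx2* they were *Tcf4* (0.13), which encodes a bHLH factor of neurons, *Tmco1* (0.14), and *Emb* (0.16). None of these was another member. Among the members themselves the smallest differences were those of *Cux2* with *Rorb* and *Pou3f1* with *Pou3f3*, both at 0.14. All of these spanned less than 2-fold, so a small difference does not show a shared pattern. *Pou3f1* was highest in association L2/3 and *Pou3f3* in L6b. *Ncoa1* stood at 2.41 and 1.92 in L2/3 of association and callosal neurons, 1.51 and 1.54 in L5, and 0.74 in L6b, with steps like those of *Mef2c*.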

How the data were processed

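The authors hybridized amplified cDNA of 5 groups of captured neurons to Mouse Gene 1.0 ST arrays (Affymetrix) and deposited 1 table of log2 signals with 35556 probe sets. The submitters' notes name Affymetrix Expression Console. Not given in the sources used here are its version, the summary method, and whether the global normalization of the methods is included. The log base was taken from the values, which run from 1.11 to 14.2 and are not centered per gene. Signal precision is limited by the number of arrays, 1 per group.

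Each array's median (5.71 to 5.80) was subtracted. A platform annotation gave 1 symbol to 21789 probe sets, several to 1621, which were not used, and none to the remaining 12146, which are unnamed here. The probe set with the highest mean stood for a gene, and the filter kept 12632 of 19938 genes, those at or above the median of at least 1 array. Genes were counted at 2-fold. The members and the 10 companion and 12 marker lists were chosen with earlier results of these data known. Older symbols were matched through RefSeq, and the paired *Xlr3b* and *Xlr4b* probe sets name several genes and were left out. Named genes were the members, up to 4 genes per companion list with the largest upper-layer difference (or any list of 6 or fewer), markers, and the 3 nearest profiles of members spanning 2-fold. *Xist* and *Eif2s3y* were named after their values were seen. Alternatives were 3 other scalings, the mean of probe sets, other filters, a 1.5-fold rule, and leaving out each array. The scaling and the 2-fold rule were tried on simulated arrays with small noise and known shifts in L6b alone. Those arrays lacked the repeated values of the deposited ones, so they do not show how the rules behave on these data. Python 3.11.15 and pandas 2.3.3 were used.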

Additional observations from a re-analysis of the deposited data

Results flagged for a closer look

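Some members differed in opposite directions between layers or projections, and none of these differences was tested, since each rests on 1 array per group. The association minus callosal difference of *Lhx2* was 1.06 in L2/3 and -0.26 in L5, and its L2/3 minus L5 difference was 0.82 in association and -0.50 in callosal neurons. Both statements describe the same 4 arrays. For *Mef2c* the association minus callosal difference was 0.62 in L2/3 and -0.05 in L5 (0.02 with quantile normalization, so that the directions no longer differed), for *Pou3f1* 0.12 and -0.23, for *Pou3f3* 0.13 and -0.06, and for *Pou3f2*, with the opposite order, -0.22 and 0.21. Apart from *Lhx2*, at least 1 of the values in each pair is under 0.25 log2.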

How the results depend on the processing

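No paired analysis was possible because groups of 1 array share at most 1 replicate number. Of the values for single genes that were at least 2-fold, none turned its direction under any alternative. Counts of members at least 2-fold higher moved as follows. The share of all genes past the filter was not counted under these alternatives, so a changed count need not be particular to the members. Between L2/3 and L5 the association count of 2 was 1 with the 75th percentile as scaling and 4 with a 1.5-fold rule, and the callosal count of 1 was 0 with the mean of probe sets and 2 with a 1.5-fold rule. Between L5 and L6b the count of 1 was 3 with a 1.5-fold rule. Between association and callosal L2/3 the count of 1 was 0 with quantile normalization and 2 with a 1.5-fold rule. With the 75th percentile as filter, *Pou3f1*, *Pou3f3*, and *Rorb* were left out, and over the remaining 5 genes the median L6b enrichment was -1.16 and the median upper-layer difference 1.01, in place of -0.62 and 0.42. The count of genes with L2/3 above the deep layers was 4 with all arrays and 3 under each of the 3 other scalings. It ranged from 4 to 7 when 1 array was left out, with 7 without callosal L2/3. With fewer arrays this rule is easier to meet, and the share of all genes was not counted for it. Leaving out 1 array moved the median upper-layer difference to between 0.11 (without association L2/3) and 0.80 (without callosal L2/3), with 0.26 without L6b.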
